A study of Mus musculus with 24 samples.

Results

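The Janus kinases (JAKs) and the signal transducers and activators of transcription (STATs) were followed here at the RNA level through 4 states of mouse CD4+ T cells, with and without the chromatin remodeling subunit BAF180. The members are Stat2, Stat3, Stat4, Stat5a, Stat5b, Stat6, Jak1, Jak2 and Jak3, 9 genes of the 17880 on the array. They were chosen by name, and every probe that the deposited table assigns to one of them was used, which gave 18 of 25697 probes. A probe was kept when it was detected on at least 1 array. The kept probes numbered 16 and stood for 8 of the members, among 14246 kept probes and 10424 genes in all. Stat5b is the member without a kept probe.

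JAKs are tyrosine kinases bound to the inner ends of cytokine receptors, and STATs are the transcription factors they phosphorylate, which then pair and enter the nucleus. In T helper cells different cytokines use different pairs: IL-4 acts through Jak1, Jak3 and Stat6 and drives Th2 differentiation, IL-12 acts through Jak2 and Stat4 and drives Th1 differentiation, and IL-2 acts through Jak1, Jak3, Stat5a and Stat5b. Activity is set by phosphorylation, which an RNA array does not measure.

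All cells came from mice that were 4 to 6 weeks old and that the labels call Balb/c, while the methods of the study describe a mixed B6-129 background before the cross to CD4-Cre. BAF180, encoded by Pbrm1, was deleted with Cre under the CD4 promoter, which acts in thymocytes late in their development and acts in CD8 as well as CD4 lineages. The labels give the control mice as WT and do not say whether they carried Cre. Resting Naïve cells were CD4+CD62L+ cells from spleen and lymph nodes, purified to 95%. Stimulated Naïve cells had been kept for 24 h on plates coated with anti-CD3 (1 µg/ml) and anti-CD28 (2 µg/ml). Resting Th2 cells were made from Naïve cells on the same antibodies with IL-4 (10 ng/ml) and anti-IFN-gamma (10 µg/ml), followed by IL-2 (100 U/ml), and stimulated Th2 cells were resting Th2 cells given PMA (50 ng/ml) and ionomycin (500 ng/ml) for 1.5 h. Each state had 3 arrays per genotype, replicates A, B and C.

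Values are normalized log2 intensities, so that a difference of 1 is a doubling, and a level cannot be set against that of another probe. Between 8047 and 10689 probes were detected per array, and arrays of a group correlated by 0.949 to 0.989. The brightest Pbrm1 probe was lower on every BAF180-deficient array than on every WT array of the same state, with differences of -1.01 in resting Naïve, -1.63 in stimulated Naïve, -1.86 in resting Th2 and -1.42 in stimulated Th2 cells (adjusted p = 0.121, 0.00746, 0.00101 and 0.0141). All 7 T cell markers were detected in every group. The 6 kept of 8 markers of myeloid cells, on the other hand, summed to between 1660 and 4964 on the resting Naïve arrays of either genotype and to between 122.7 and 159.4 on all others, where Lyz2, Cd14 and Fcgr3 were not detected. The 6 kept of 7 markers of B cells summed to between 466.4 and 1185 in resting Naïve cells and to between 118.4 and 569.3 elsewhere. In stimulated Naïve cells the T cell markers themselves summed to between 5505 and 8926, against 13190 to 15320 at rest. The part of these shifts in the differences from resting Naïve cells given below was not tested. Values are for cell populations, in which fewer cells of a type and less RNA per cell cannot be told apart.

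Sequences of some member probes are shown because several members were measured in more than 1 place. The brightest probes of Jak2 and Stat5a are not among them. Of the 4 below, the 2 of Stat4 lie at positions 2613 and 1835 of its transcript, and they behaved differently in Naïve cells, as described further down. That of Jak2 is its second brightest, at position 3553, and that of Jak3 is its brightest, at position 3018.  The table places the Stat4 probes on chromosome 1 at 52050228 to 52050277 and 52042945 to 52042994 and the Jak2 probe on chromosome 19 at 29385477 to 29385526, plus strand, in a build it does not name.
Stat4 ILMN_1236059: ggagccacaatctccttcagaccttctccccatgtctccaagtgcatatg
Stat4 ILMN_2614970: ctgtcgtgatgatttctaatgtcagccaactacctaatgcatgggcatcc
Jak2 ILMN_3115162: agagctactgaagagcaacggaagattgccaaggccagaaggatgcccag
Jak3 ILMN_1219155: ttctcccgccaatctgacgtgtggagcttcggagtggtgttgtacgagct
None of the 18 member probes shared a run of 16 bases, on either strand, with a probe of another gene. Only exact runs were sought, so near matches, such as copies of a repeat, would be missed for any of these probes, the brightest Stat5a probe included. Transcripts of other genes were not searched. The Jak3 probe shown shared such a run with 1 promoter of another gene, as did the dimmest probes of Stat5a, Stat6 and Jak2.

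Jak2, Stat5a and Stat4 are the members that moved furthest, and their promoters are given for that reason. Each is the 250 bases before the RefSeq start on GRCm38.p6, for Jak2 chr19:29251553-29251802, for Stat5a chr11:100859406-100859655 and for Stat4 chr1:51986898-51987147, all on the plus strand and, for Stat5a and Stat4, the first of their 2 starts. Capitals mark GGAAA, the core that NFAT binds, or TTTCC, which is GGAAA on the other strand.
Jak2: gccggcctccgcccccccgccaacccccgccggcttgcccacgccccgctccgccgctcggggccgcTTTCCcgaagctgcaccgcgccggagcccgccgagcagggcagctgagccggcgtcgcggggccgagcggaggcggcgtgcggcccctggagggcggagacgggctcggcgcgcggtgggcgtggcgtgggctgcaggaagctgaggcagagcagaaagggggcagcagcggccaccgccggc
Stat5a: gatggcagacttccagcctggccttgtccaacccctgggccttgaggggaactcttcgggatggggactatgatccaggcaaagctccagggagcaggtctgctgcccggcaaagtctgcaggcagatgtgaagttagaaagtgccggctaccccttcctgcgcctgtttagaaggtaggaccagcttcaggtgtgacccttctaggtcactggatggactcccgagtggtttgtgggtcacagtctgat
Stat4: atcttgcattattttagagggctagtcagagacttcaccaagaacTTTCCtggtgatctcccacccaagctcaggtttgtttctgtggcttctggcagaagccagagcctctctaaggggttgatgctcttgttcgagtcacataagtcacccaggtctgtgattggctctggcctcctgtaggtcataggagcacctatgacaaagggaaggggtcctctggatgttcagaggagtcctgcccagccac
In the windows shown the motif was found once for Jak2, once for Stat4 and not for Stat5a, while the windows of the other starts held 2 matches for Stat4 and 1 for Stat5a. It was present in 8 of the 12 windows of the 9 members and in 55.6% of all 32851 windows. TTCNNNGAA, the motif that STAT dimers bind, and TGANTCA, bound by AP-1, were searched on both strands and occurred in 0 of the 12, against 7.02% and 6.75% of all windows.

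Jak2, which serves the receptors of IL-12, interferon gamma and GM-CSF, rose in restimulated Th2 cells. On arrays A, B and C its log2 intensity was 8.37, 8.99 and 8.25 in WT and 8.78, 8.74 and 8.37 in BAF180-deficient resting Naïve cells. After stimulation of Naïve cells it was 8.59, 9.28 and 9.12 in WT and 8.73, 9.19 and 9.32 in BAF180-deficient cells. These 12 values overlap. In resting Th2 cells it was 8.73, 8.88 and 8.85 in WT and 7.79, 8.20 and 8.20 in BAF180-deficient cells. PMA and ionomycin brought it to 11.60, 11.48 and 11.19 in WT and to 10.68, 11.19 and 10.68 in BAF180-deficient Th2 cells. All stimulated Th2 arrays lay above all others. The increase over resting Th2 cells was 6.07-fold in WT (log2 difference 2.60 ± 0.22 SE, adjusted p = 1.85e-08) and 6.90-fold in BAF180-deficient cells (2.79 ± 0.22, adjusted p = 8.46e-09). The second probe gave 6.05-fold and 7.05-fold, and the remaining probe was detected on 1 array of 24.

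Stat5a, the factor that IL-2 activates, rose with both kinds of stimulation. Its log2 intensity was 7.74, 7.97 and 7.05 in WT and 7.64, 7.47 and 6.73 in BAF180-deficient resting Naïve cells, and 8.81, 8.78 and 8.32 in WT and 8.999, 8.98 and 8.17 in BAF180-deficient stimulated Naïve cells. The resting and stimulated arrays did not overlap in either genotype. In resting Th2 cells the values were 6.35, 6.74 and 7.62 in WT and 6.71, 6.68 and 7.18 in BAF180-deficient cells. In stimulated Th2 cells they were 9.80, 10.08 and 9.88 in WT and 9.61, 9.82 and 9.23 in BAF180-deficient cells, the highest of any state. Restimulation raised Stat5a 8.08-fold in WT Th2 cells (log2 difference 3.01 ± 0.31 SE, adjusted p = 3.10e-07) and 6.48-fold in BAF180-deficient Th2 cells (2.70 ± 0.31, adjusted p = 1.72e-06). The increase in Naïve cells was 2.07-fold in WT (adjusted p = 0.00918, and 0.0614 without resting WT array C) and 2.70-fold in BAF180-deficient cells (adjusted p = 0.000813). In resting Th2 cells Stat5a differed from resting Naïve cells by -0.68 in WT and -0.42 in BAF180-deficient cells (adjusted p = 0.0995 and 0.315). A second, dimmer probe was not detected in resting Naïve cells or in WT resting Th2 cells and was detected on all 12 stimulated arrays. Taking the detection limit for the undetected group, it rose at least 1.31-fold and 1.56-fold in WT and BAF180-deficient Naïve cells. In WT Th2 cells it rose at least 3.70-fold. The tests were of the differences as measured and not of these bounds (adjusted p = 0.000478, 0.000103 and 3.19e-08 in the same order). In BAF180-deficient Th2 cells, with 1 resting array detected, the fold was 3.31.

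Stat4, the factor that IL-12 activates, moved the other way. On its brightest probe the log2 intensity was 9.21, 9.75 and 9.24 in WT and 9.30, 9.48 and 10.02 in BAF180-deficient resting Naïve cells. It was 8.30, 8.06 and 7.99 in WT and 8.90, 8.15 and 8.15 in BAF180-deficient cells after stimulation. All stimulated arrays lay below all resting arrays. Resting Th2 cells gave 8.66, 9.24 and 8.95 in WT and 9.20, 9.24 and 8.76 in BAF180-deficient cells, and stimulated Th2 cells 6.49, 6.86 and 6.66 in WT and 6.79, 6.70 and 6.55 in BAF180-deficient cells. The stimulated Th2 arrays were the lowest of all. Restimulated WT Th2 cells had 4.86-fold less than resting ones (log2 difference -2.28 ± 0.22 SE, adjusted p = 1.36e-07) and BAF180-deficient Th2 cells 5.23-fold less (-2.39 ± 0.22, adjusted p = 9.93e-08). In Naïve cells stimulation lowered the same probe 2.44-fold in WT (adjusted p = 7.74e-05) and 2.30-fold in BAF180-deficient cells (adjusted p = 0.000162).

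The 2 main Stat4 probes differed in Naïve cells. At position 1835 the difference between stimulated and resting Naïve cells was -0.03 in WT and -0.21 in BAF180-deficient cells, with adjusted p = 0.936 and 0.574. In WT resting Th2 cells this probe was 1.63-fold higher than in resting Naïve cells (adjusted p = 0.0421), while the brightest probe differed by -0.45 (adjusted p = 0.128). In restimulated Th2 cells both probes fell. The dimmer probe was there 3.29-fold lower in WT and 2.90-fold lower in BAF180-deficient cells, and it was detected on 2 of 3 and 1 of 3 arrays. Whether the probes read different transcripts was not tested. The third Stat4 probe was detected on 1 array of 24.

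**Figure D1:**
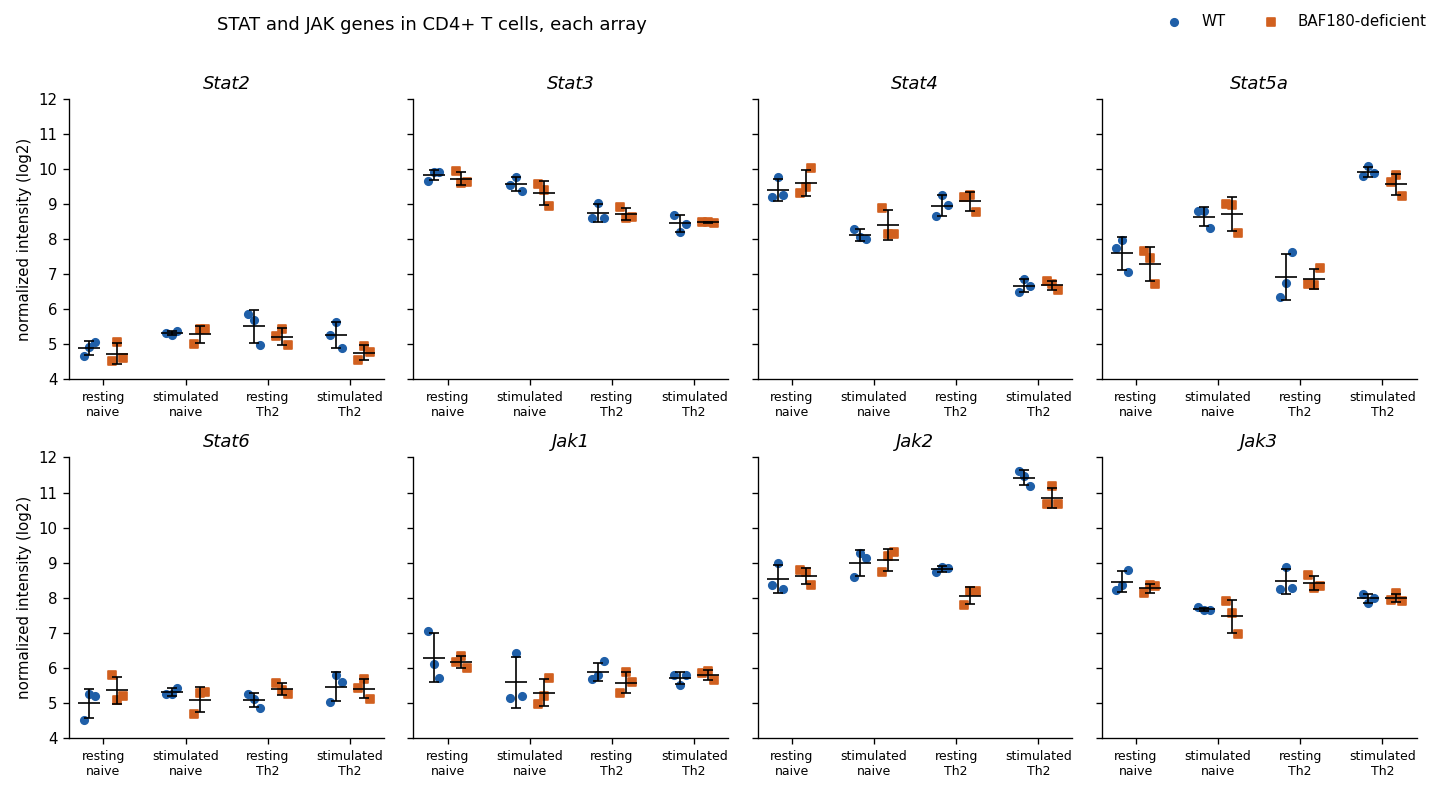
Normalized intensity (log2) of the brightest probe of each of 8 genes on each of the 24 arrays, by cell state (horizontal). Circles are WT and squares BAF180-deficient arrays, and bars give the mean ± SD of 3 arrays. Jak2 and Stat5a are highest, and Stat4 is lowest, on all 6 stimulated Th2 arrays.

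Seen over all members, 1 of 8 was higher and 2 of 8 were lower in stimulated than in resting WT Naïve cells at an adjusted p below 0.05. Of all 10424 genes, 23.3% were higher and 21.9% lower in this comparison. In BAF180-deficient Naïve cells 1 member was higher and 3 were lower, against 22.1% and 21.3% of all genes. Restimulation of Th2 cells raised 2 members and lowered 1 in either genotype, against 12.5% higher and 15.9% lower of all genes in WT and 11.7% and 15.4% in BAF180-deficient cells. Resting Th2 cells had 1 member higher and 1 lower than resting Naïve cells in WT, against 17.9% and 17.6% of all genes, and 0 higher and 1 lower in BAF180-deficient cells, against 18.2% and 17.5%. Comparisons that share a state share its arrays. The arrays of 2 states did not overlap for 49.2% of all genes between stimulated and resting Naïve cells in either genotype, for 43.6% in WT and 50% in BAF180-deficient cells between resting Th2 and resting Naïve cells, and for 41.1% and 43.5% after restimulation.

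**Figure D2:**
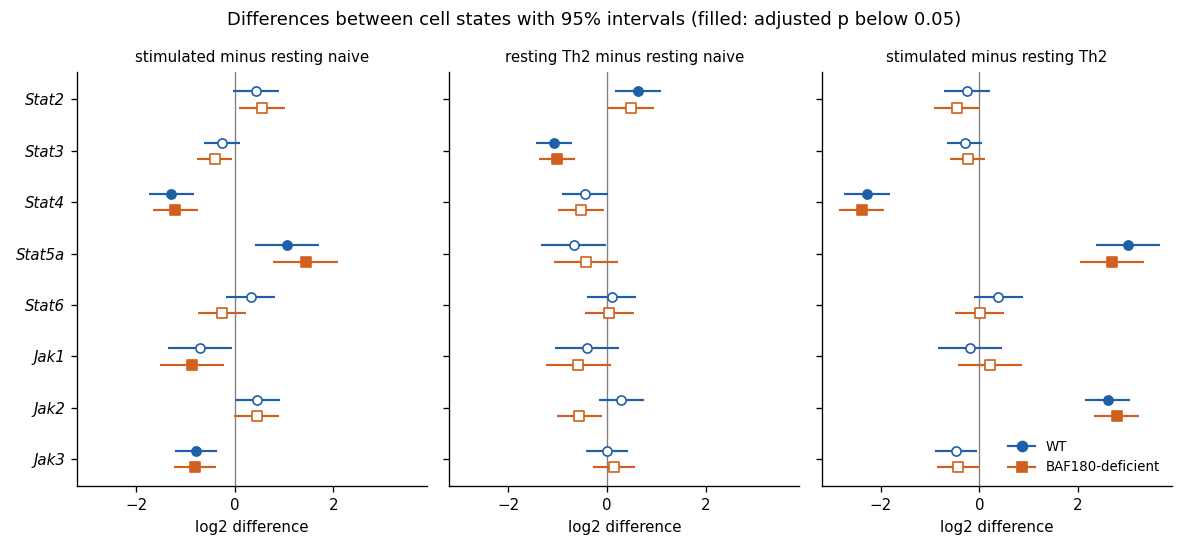
Log2 difference (horizontal) of each gene between cell states, with WT as circles and BAF180-deficient cells as squares, 3 arrays per group. Lines are 95% intervals and filled symbols have an adjusted p below 0.05. The 2 genotypes lie close together for Jak2, Stat5a and Stat4 after restimulation of Th2 cells, and both genotypes have lower Stat3 in resting Th2 cells.

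Jak3, the kinase that binds the common gamma chain of the IL-2 and IL-4 receptors, was lower in stimulated Naïve cells. Its log2 intensity was 8.22, 8.37 and 8.80 in WT and 8.13, 8.37 and 8.34 in BAF180-deficient cells at rest, and 7.73, 7.65 and 7.65 in WT and 7.90, 7.56 and 6.97 in BAF180-deficient cells after stimulation. The 6 stimulated arrays were below the 6 resting ones. The decrease was 1.73-fold in WT (log2 difference -0.79 ± 0.20 SE, adjusted p = 0.00335) and 1.74-fold in BAF180-deficient cells (-0.80 ± 0.20, adjusted p = 0.00311). The second Jak3 probe differed by -0.39 and -0.30 (adjusted p = 0.0740 and 0.176). In resting Th2 cells the brightest probe was close to resting Naïve cells, with differences of 0.01 in WT and 0.15 in BAF180-deficient cells, while the second was 1.37-fold higher in BAF180-deficient cells (adjusted p = 0.0446) and differed by 0.32 in WT (adjusted p = 0.162). In restimulated Th2 cells the brightest probe differed from resting Th2 cells by -0.48 in WT and -0.44 in BAF180-deficient cells (adjusted p = 0.0929 and 0.130). On this probe every stimulated array was below every resting one. Of all genes, 41.1% in WT and 43.5% in BAF180-deficient cells did not overlap between these states. The second probe had resting and stimulated means of 6.68 and 6.59 in WT and 6.65 and 6.61 in BAF180-deficient cells, with overlapping arrays.

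Jak1, which pairs with Jak3 on the same receptors, had a wide spread between arrays and 1 probe. In resting and stimulated Naïve cells it averaged 6.30 ± 0.69 and 5.60 ± 0.73 (SD, n = 3) in WT and 6.16 ± 0.17 and 5.30 ± 0.39 in BAF180-deficient cells. The difference was called in BAF180-deficient cells, where it was 1.82-fold (adjusted p = 0.0313), and not in WT cells (1.62-fold lower, adjusted p = 0.0772). The call was lost without the filter on detection (adjusted p = 0.0688), with a larger background offset (0.0563) and with Z-score normalization (0.167), and also when BAF180-deficient array A or B of either state was left out (up to 0.115). Interaction terms of genotype and stimulation found no member with a different response in the 2 genotypes. In Th2 cells Jak1 averaged between 5.58 and 5.89 over the groups.

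Stat3, the factor of IL-6, IL-10 and IL-21, was lower in Th2 than in Naïve cells. The brightest probe read 9.66, 9.91 and 9.90 in WT and 9.93, 9.60 and 9.62 in BAF180-deficient resting Naïve cells, and 8.60, 9.03 and 8.60 in WT and 8.91, 8.59 and 8.62 in BAF180-deficient resting Th2 cells. The 2 states did not overlap. The decrease was 2.12-fold in WT (log2 difference -1.08 ± 0.17 SE, adjusted p = 5.72e-05) and 2.02-fold in BAF180-deficient cells (-1.01 ± 0.17, adjusted p = 0.000122). In stimulated Naïve cells the values were 9.55, 9.77 and 9.38 in WT and 9.58, 9.41 and 8.94 in BAF180-deficient cells, differences of -0.26 and -0.41 that were not called (adjusted p = 0.245 and 0.0627). The other probes were higher in stimulated than in resting WT Naïve cells, by 0.20 and 0.32 (adjusted p = 0.610 and 0.176). In BAF180-deficient Naïve cells their means went from 8.80 to 8.81 and from 6.05 to 6.36 with stimulation. Between resting Naïve and resting Th2 cells these probes moved less than the brightest. They differed by -0.22 and -0.36 in WT (adjusted p = 0.595 and 0.139) and by -0.20 and -0.49 in BAF180-deficient cells (adjusted p = 0.630 and 0.0465). The myeloid markers also fell between these states. On the brightest probe stimulated Th2 cells had means of 8.44 ± 0.24 in WT and 8.47 ± 0.015 in BAF180-deficient cells. They differed from resting ones by -0.30 and -0.24, which were not called. The arrays overlapped in WT and not in BAF180-deficient cells, where 43.5% of all genes did not overlap. The second brightest probe went the other way, from means of 8.71 to 8.76 in WT and 8.60 to 8.80 in BAF180-deficient Th2 cells. The dimmest probe went from 5.60 to 5.54 and from 5.56 to 5.50.

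Stat2, the interferon partner factor, was dim. It was detected on 2 of 3 WT and 1 of 3 BAF180-deficient arrays of resting Naïve cells and on 20 of 24 arrays in all. Its level was 4.89 ± 0.20 in WT resting Naïve and 5.51 ± 0.47 in WT resting Th2 cells, a 1.54-fold difference with adjusted p = 0.0331 in which the arrays of the 2 states overlapped. The call was lost when array A or B of either group was left out (adjusted p up to 0.175), without the filter on detection (0.0616) and when only the arrays compared were fitted (0.101). In BAF180-deficient cells the same difference was 1.40-fold (adjusted p = 0.0990).

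Stat6, the factor through which IL-4 drives Th2 differentiation, had group means between 4.99 and 5.47 and was detected on 22 of 24 arrays. In resting Th2 cells it differed from resting Naïve cells by 0.10 (95% interval -0.40 to 0.59) in WT and 0.04 (-0.45 to 0.54) in BAF180-deficient cells. No comparison of states called it, and in all 6 the arrays of the states overlapped. Its second probe was not detected on any array. Stat5b, the close relative of Stat5a, has a single probe, near the 3' end of its transcript at position 5106, which was not detected on any array and lay between 4.14 and 4.35, so that its level is not known from these data.

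**Figure D3:**
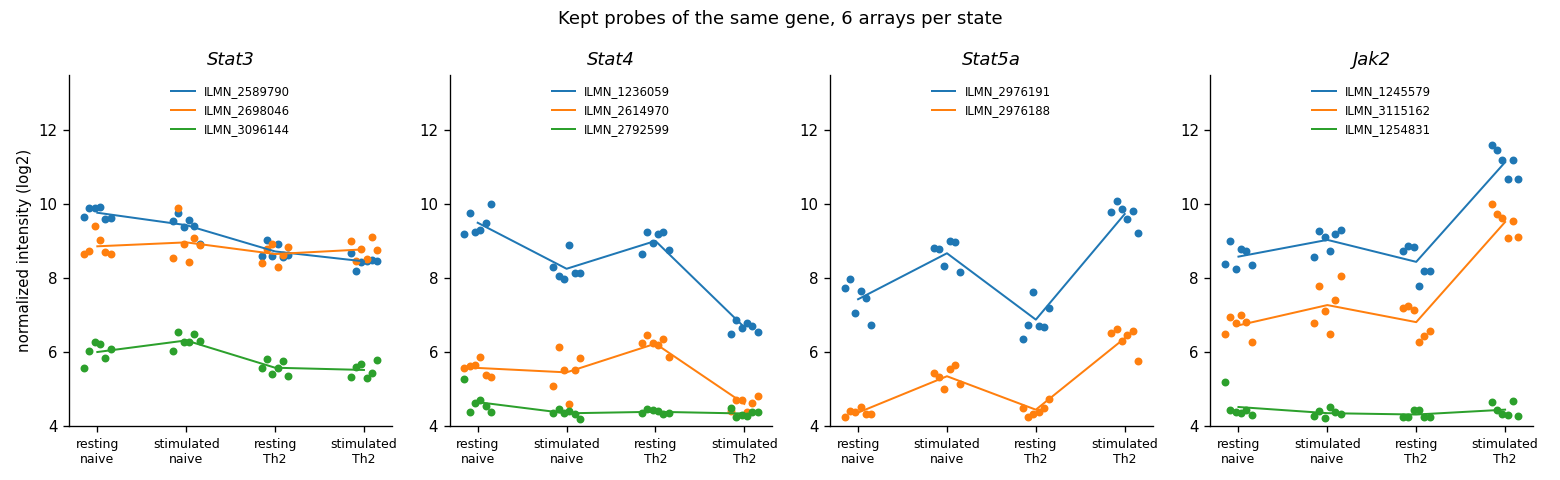
Normalized intensity (log2) of each kept probe of Stat3, Stat4, Stat5a and Jak2 in the 4 cell states (horizontal). Points are the 6 arrays of a state, 3 WT and 3 BAF180-deficient, and lines join their means. Both probes of Stat5a and the 2 upper probes of Jak2 are highest in stimulated Th2 cells, whereas the 2 upper Stat4 probes part in Naïve cells and the upper Stat3 probe falls more than the others.

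The comparison of BAF180-deficient with WT cells of the same state asks which genes depend on BAF180. By the 4 criteria of the methods (a difference beyond 1.5 SD of all differences, FDR below 0.3, p below 0.05 and a positive mean signal), 0 of 8 members were called in any state with limma. The background was 0.758% of all genes in resting Naïve, 0.115% in stimulated Naïve, 0.106% in resting Th2 and 0.0959% in stimulated Th2 cells. At an unadjusted p below 0.05 there were 0 members in resting Naïve, 0 in stimulated Naïve, 1 in resting Th2 and 2 in stimulated Th2 cells. Of all 10424 genes, 751, 241, 373 and 299 had such a p in these states. The tests of whether a response differed between genotypes also called 0 members. The background there was 0.00959% of genes for stimulation in Naïve cells, 0.00959% for differentiation and 0% for stimulation in Th2 cells. Unadjusted p was below 0.05 for 0, 1 and 0 members, and for 237, 298 and 187 of all 10424 genes.

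The member with an unadjusted p below 0.05 in resting Th2 cells was Jak2. All BAF180-deficient arrays were below all WT arrays, and the difference was -0.76 (95% interval -1.21 to -0.30, adjusted p = 0.651), a 1.69-fold lower level. By replicate letter it was -0.94 in A, -0.68 in B and -0.65 in C. In stimulated Th2 cells the arrays nearly touched, with the highest BAF180-deficient array at 11.187 and the lowest WT array at 11.191. The difference there was -0.57 (-1.03 to -0.12, adjusted p = 1.00), and by replicate letter -0.92 in A, -0.29 in B and -0.51 in C. Of all genes, 10.3% did not overlap between the genotypes in resting Th2 cells and 7.48% in stimulated Th2 cells. The second probe of Jak2 gave -0.77 and -0.54, also without overlap. Neither difference passed the adjustment over all probes. The study, in its own analysis of these arrays, names Jak2 among genes that BAF180 appeared to activate in Th2 cells. Over its conditions it reports many more changed genes than met the criteria here with limma. Those were 11 genes in resting Th2 and 10 in stimulated Th2 cells, so the calls of the 2 analyses are not directly comparable. Cd8b1, the kept 1 of 2 markers of CD8 cells, differed in the same direction, by -0.95 ± 0.43 (SE) in resting Th2, -0.70 in stimulated Th2, -0.79 in stimulated Naïve and -0.14 in resting Naïve cells (adjusted p = 1.00 in each), and its part in the Jak2 difference was not tested. Its level in resting Th2 cells was 203.5 to 340.3 in WT and 88.14 to 261.8 in BAF180-deficient arrays, and in stimulated Th2 cells 165.5 to 356.5 and 86.96 to 290.5. In resting Th2 cells the 5 kept Naïve cell markers summed to 2770 to 2890 in WT and to 2079 to 2405 in BAF180-deficient arrays. The 4 regulatory T cell markers went the other way, with 476.5 to 784.6 in WT and 718.7 to 931.5 in BAF180-deficient arrays. The part of these markers in the Jak2 difference was not tested either. In Naïve cells Jak2 differed by 0.09 (-0.37 to 0.55) at rest and by 0.08 (-0.37 to 0.54) after stimulation. The change from resting Naïve to resting Th2 cells was 0.28 in WT and -0.57 in BAF180-deficient cells, and these changes differed by -0.85 ± 0.31 (SE, adjusted p = 1.00). The response to restimulation differed between genotypes by 0.19 ± 0.31 and that to stimulation of Naïve cells by -0.01 ± 0.31. With the replicate letter as a block, the decrease of Jak2 from resting Naïve to resting Th2 cells passed the threshold in BAF180-deficient cells (adjusted p = 0.0227, against 0.0502 without it), which made 2 members called in place of 1. With the block, Stat2 passed in stimulated against resting BAF180-deficient Naïve cells (1.47-fold higher, adjusted p = 0.0303, against 0.0501).

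**Figure D4:**
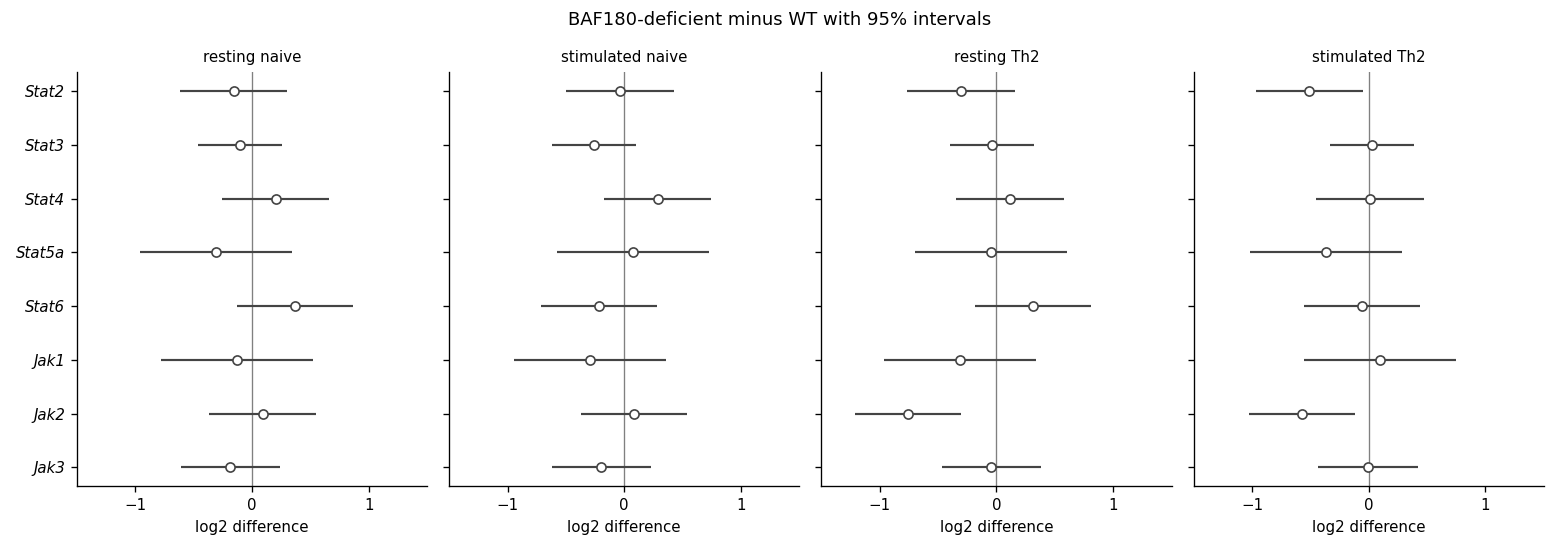
Log2 difference (horizontal) between BAF180-deficient and WT cells for 8 genes in each state, 3 arrays per group, with 95% intervals. No symbol is filled because no gene met the criteria. The intervals of Jak2 in both Th2 states and of Stat2 in stimulated Th2 cells lie below 0.

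Stat2 in stimulated Th2 cells was the other member with an unadjusted p below 0.05. Its difference was -0.51 (-0.97 to -0.05, adjusted p = 1.00), with overlapping arrays. Under other backgrounds and normalizations it was between -0.29 and -0.25. The remaining differences between genotypes lay between -0.37, for Stat5a in stimulated Th2 cells, and 0.37, for Stat6 in resting Naïve cells. Their 95% intervals reached from -1.02 to 0.86.

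The receptor chains that recruit JAKs were described with a list of 37 genes, of which 30 were tested. In stimulated WT Naïve cells 5 were higher and 12 lower, with a median difference of -0.21 against -0.01 for all genes. Of all genes 23.3% were higher and 21.9% lower, as given above, and the counts below stand against the shares given there for each comparison. Il2ra, the alpha chain of the IL-2 receptor, was 8.20-fold higher and Il12rb1, a chain of the IL-12 receptor, 4.61-fold higher. The largest decreases were those of Il7r (11.4-fold), the receptor of a survival cytokine of Naïve cells, and Ifngr1 (8.83-fold). In WT resting Th2 cells 6 chains were higher and 8 lower than in resting Naïve cells, among them Il2ra (7.30-fold) and Il12rb1 (2.64-fold) higher and Il6ra (4.89-fold) and Il10ra (3.26-fold) lower. After restimulation 3 were higher and 8 lower. Il12rb1 (2.32-fold) and Il15ra (2.31-fold) rose, and Ifngr1 (6.92-fold) and Il7r (2.34-fold) fell. In BAF180-deficient cells 5 were higher and 8 lower in stimulated Naïve cells, 5 and 7 in resting Th2 cells, and 4 and 7 after restimulation.

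Among the negative regulators, 20 of 23 were tested. In stimulated WT Naïve cells 3 were higher and 6 lower, against 23.3% and 21.9% of all genes, and the median difference was -0.13. Cish (4.08-fold) and Socs2 (2.77-fold), both feedback inhibitors of cytokine signals, were higher and Pias3 (2.33-fold) and Socs3 (2.26-fold) lower. The medians were -0.25 in WT resting Th2 cells and -0.20 after restimulation, where 17.9% and 12.5% of all genes were higher and 17.6% and 15.9% lower. WT resting Th2 cells had 2 higher than resting Naïve cells, Socs2 (a log2 difference of 3.46) and Cish (3.17-fold), and 3 lower, among them Ptpn6 (2.24-fold), a phosphatase, and Socs3 (2.03-fold). Restimulation raised 3, including Socs4 (1.75-fold) and Socs6 (1.63-fold), and lowered 7, including Socs2 (3.85-fold) and Pias3 (2.44-fold). Socs2 was thus higher in resting Th2 than in resting Naïve cells and lower after restimulation. In BAF180-deficient cells 3 were higher and 4 lower in stimulated Naïve cells, 4 and 3 in resting Th2 cells, and 2 and 6 after restimulation.

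Of 37 known targets and partners of STATs, 35 were tested. The list shares Il2ra and Il4ra with the receptor chains and Cish and Usp18 with the negative regulators. In stimulated WT Naïve cells 10 were higher and 8 lower, against 23.3% and 21.9% of all genes, with a median of 0.07. Irf4 (8.71-fold) and Il2ra (8.20-fold) rose while Il18r1 (9.99-fold) and Junb (9.74-fold) fell. Resting Th2 cells had 11 higher and 7 lower than resting Naïve cells in WT, against 17.9% and 17.6% of all genes, with a median of 0.05. Il2ra (7.30-fold) and Nfil3 (3.58-fold) were higher, and Junb (14.3-fold) and Bcl6 (11.5-fold) lower. Restimulation raised 12 and lowered 7, against 12.5% and 15.9% of all genes, with a median of 0.06. Ifng (66.1-fold), the Th1 cytokine, and Tbx21 (8.76-fold), which encodes the Th1 factor T-bet, rose most, and Ccnd3 (11.4-fold) and Bcl2 (3.66-fold) fell most. In BAF180-deficient cells the counts were 10 higher and 10 lower in stimulated Naïve, 11 and 11 in resting Th2, and 12 and 5 in restimulated Th2 cells. Between genotypes 0 receptor chains and 0 negative regulators met the criteria with limma in any state, and in resting Th2 cells 2 receptor chains and in stimulated Th2 cells 1 negative regulator had an unadjusted p below 0.05. Of the targets, Il18r1, the IL-18 receptor chain, met the criteria in stimulated Naïve cells, where it was 2.05-fold higher in BAF180-deficient cells (FDR 0.291). In the other states 0 targets met them. An unadjusted p below 0.05 was found for 0 targets in resting Naïve, 3 in stimulated Naïve, 6 in resting Th2 and 3 in stimulated Th2 cells. Of all 10424 genes, 751 in resting Naïve, 241 in stimulated Naïve, 373 in resting Th2 and 299 in stimulated Th2 cells had such a p.

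Genes with the pattern most like that of a member over the 24 arrays were sought by Pearson's r, given as a description since arrays of a state share that state. Jak2 was closest to Eaf1 (0.955), Csf2 (0.950), which encodes GM-CSF, and Gabpb1 (0.946). For Stat5a they were Rgs16 (0.966), Gfod1 (0.961) and Ccl3 (0.952), and for Stat4 Rassf2 (0.977), Pxylp1 (0.968) and Abhd8 (0.968). The values were of the same order for Stat3, with Adck1 (0.938), Ptpn6 (0.929) and Ogdh (0.926), and for Jak3, with Plec (0.889) and Grina (0.879). They were lower for Stat2 (Psme4 0.847, Hsh2d 0.778 and Mzt1 0.762), for Jak1 (Fam210b 0.839, Ikzf1 0.817 and Elk4 0.799) and for Stat6 (Ube2z 0.662, Zfp747 0.588 and Map2k2 0.582). Among the members, r was -0.91 between Stat4 and Jak2, 0.86 between Stat5a and Jak2 and -0.85 between Stat4 and Stat5a.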

How the data were processed

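Total RNA of 24 T cell samples was converted to biotin-labelled cRNA and hybridized to Illumina MouseRef-8 v2 BeadChips. The authors deposited the intensity of each probe from GenomeStudio (version 1.6.0 in the submitters' processing notes), without normalization, and a detection p-value from the negative controls of the array. Intensities were background-corrected from the detection p-values (offset 16), log2 transformed and quantile normalized with neqc in limma 3.58.1 (R 4.3.3). A probe was kept when its detection p was 0.02 or less on 1 array or more. The methods also filter on signal consistency, which they do not define, and that filter was not applied. A gene was taken by its brightest kept probe.

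All arrays entered 1 model of the 8 groups (lmFit and eBayes, 16 residual degrees of freedom), and p-values were adjusted by Benjamini-Hochberg over the 14246 kept probes in each of 13 comparisons. Comparisons of states and interactions were called at an adjusted p below 0.05, those of genotypes by the 4 criteria of the methods, whose FDR and p were taken here from limma. The members, the gene lists and the tests were chosen with earlier results of these data known. The text names all members with all probes, the 3 genes most like each (1 gene is not reported here), and for each list the 2 largest increases and decreases in WT. Il18r1 between genotypes was named because it was the only gene of the lists called there. Symbols were updated with RefSeq names for 25321 of 25697 probes. Promoters are from RefSeq (GRCm38.p6), with rows for all 9 members.

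The number of arrays limits the precision. Deviations of WT and BAF180-deficient arrays of the same letter from their group means correlated by 0.301 (A), 0.136 (B) and 0.516 (C) over the 4 states. With the mouse pairs described in the legend of the study, the letters were read as pairs, and the fit with the letter as a block is given where it changed a call. P-values measure the spread between these arrays. Alternatives were other background corrections and normalizations (the Z-score of the methods among them), other filters, other calling rules, the mean over probes and leaving out each array.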

Additional observations from a re-analysis of the deposited data

How the results depend on the processing

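The rise of Jak2 and Stat5a and the fall of Stat4 in restimulated Th2 cells passed the threshold under all 33 alternatives in both genotypes. Averaging the kept probes gave smaller values, 1.79 and 1.90 for Jak2 and -1.36 and -1.31 for Stat4 in WT and BAF180-deficient cells, since dim probes enter the mean. No member was called between genotypes under any of them. The Jak2 difference lay between -0.83 and -0.50 in resting Th2 cells (adjusted p 0.319 to 1) and between -0.74 and -0.39 in stimulated Th2 cells (0.903 to 1.00). With 3 arrays a group, the precision is limited by their number, and dim probes such as those of Stat2, Stat6 and Jak1 are also limited by their signal over background. The files do not name the slides, so a slide block was not run. The causes of the changes below were not tested.

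In resting Th2 against resting Naïve cells, the BAF180-deficient count of 1 member became 2 with Z-score normalization, 2 with the stricter filter, 2 with the replicate block and 3 with the compared arrays alone, and leaving out single arrays gave 1 to 3. The members added to Stat3 were Jak2, Stat4, Jak1 or Stat2, and the count was 3 without BAF180-deficient stimulated Naïve array A. The WT count of 2 became 1 without a filter and 1 with the compared arrays alone, with 1 to 3 when single arrays were left out. By the 4 criteria of the methods these counts were 0 and 0, and in stimulated against resting Naïve cells they were 0 in WT (3 before) and 1 in BAF180-deficient cells (4 before). Apart from the 2 calls given with the results, the replicate block changed no call.

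All reversals concerned differences that were not called. With Z-score normalization Stat6 in BAF180-deficient restimulated Th2 cells was -0.11, and differences between genotypes were 0.0029 for Stat2 in stimulated Naïve cells, 0.016 for Stat3, 0.037 for Stat5a and 0.0071 for Jak3 in resting Th2 cells, and -0.013 for Stat3, -0.065 for Stat4 and -0.0060 for Jak1 in stimulated Th2 cells. With the mean of the kept probes, Stat3 in stimulated WT Naïve cells was 0.088. Differences between genotypes were then -0.036 for Stat4 and -0.080 for Jak2 in resting Naïve cells, -0.021 for Stat4 in stimulated Naïve cells, -0.042 for Stat4 and 0.072 for Stat5a in resting Th2 cells and 0.0050 for Jak3 in stimulated Th2 cells. The Jak2 interaction with stimulation of Naïve cells was 0.17.

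Leaving out 1 array at a time gave these ranges for differences that changed sign. Between genotypes in resting Naïve cells they were -0.42 to 0.25 for Jak1, -0.053 to 0.32 for Jak2 and -0.0067 to 0.38 for Stat4. In stimulated Naïve cells they were -0.52 to 0.12 for Jak1, -0.12 to 0.25 for Jak2, -0.41 to 0.056 for Jak3, -0.11 to 0.10 for Stat2 and -0.082 to 0.35 for Stat5a. In resting Th2 cells they were -0.16 to 0.16 for Jak3, -0.14 to 0.11 for Stat3, -0.031 to 0.27 for Stat4 and -0.33 to 0.31 for Stat5a. In stimulated Th2 cells they were -0.075 to 0.057 for Jak3, -0.088 to 0.15 for Stat3, -0.082 to 0.10 for Stat4 and -0.28 to 0.10 for Stat6. Resting Th2 against resting Naïve cells gave -0.20 to 0.17 for Jak3 and -0.15 to 0.23 for Stat6 in WT and -0.089 to 0.26 for Stat6 in BAF180-deficient cells. Restimulated BAF180-deficient Th2 cells gave -0.13 to 0.15 for Stat6, and the Jak2 interaction with stimulation of Naïve cells -0.24 to 0.16.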
